A study of Homo sapiens with 8 samples.

Results

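The TGF-beta superfamily genes followed here are BMP2, BMP4, BMP7, TGFB1, TGFB2, INHBA, FST, FSTL3, SMAD6 and SMAD7. They were chosen as a named list, 10 of the 69215 genes with a row in each library, because earlier results of these data had shown FSTL3 higher after SMARCB1 induction and BMP7 nearly absent from 1 of the cell lines. The induction of SMARCB1, the difference between the lines and the difference between the induction effects therefore helped to choose them, and for these 10 genes those comparisons are given as levels and fold changes with no test. The effect of doxycycline in the GFP line was not used in the choice and is the comparison in which they were tested.

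Ligands of the superfamily, which include the bone morphogenetic proteins (BMPs), the activins and the TGF-betas, are secreted dimers that bring type I and type II receptor kinases together at the cell surface. The activated receptors phosphorylate SMAD proteins, which enter the nucleus with SMAD4 and change transcription: BMPs act mainly through SMAD1, SMAD5 and SMAD9, and activins and TGF-betas through SMAD2 and SMAD3. Follistatin (FST) and follistatin-like 3 (FSTL3) bind activins and related ligands outside the cell and keep them from their receptors. SMAD6 and SMAD7 are inhibitory SMADs that act inside the cell, and their genes are themselves induced by the pathway. BMP4 and BMP7 are known for their roles in the developing kidney.

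The cells were G401, a long-established rhabdoid kidney tumor line. Rhabdoid tumors are childhood cancers defined by loss of SMARCB1, a subunit of the mSWI/SNF chromatin remodeling complex. The cells carried a Tet-On construct for SMARCB1 or, as the control line, for GFP, and were treated with 0.1 µg/mL doxycycline (Dox) or the solvent DMSO for 12 h. The 4 groups, SMARCB1 DMSO, SMARCB1 Dox, GFP DMSO and GFP Dox, had 2 libraries each of total RNA. All 4 groups share the G401 background without SMARCB1 of its own, and each line is 1 engineered derivative, for which the sources used here do not say whether it is a clone. By the study's methods, several culture plates were combined for each condition and the experiment was run in duplicate. Whether the replicates came from separately grown cultures is not spelled out, so the p-values measure only the spread between these libraries, which may be technical.

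Between 29632090 and 37597477 reads were assigned to genes per library. SMARCB1 itself had 10 and 21 reads in the SMARCB1 DMSO libraries, 30474 and 29383 in the SMARCB1 Dox libraries and 0 in each of the 4 GFP libraries, in keeping with the labels. Reads of mitochondrial genes were 27.9% and 23.9% of the total in the SMARCB1 DMSO libraries, 22.9% and 21.3% in the SMARCB1 Dox libraries and 18.9% to 21.5% in the GFP libraries. This share thus moved with the line and with induction, and its part in the results was not tested.

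Where FSTL3, TGFB1 and the inhibitory SMAD genes start is shown first. FSTL3 and TGFB1 were higher after SMARCB1 induction, and SMAD6 and SMAD7 are the pathway's own feedback genes. The sequences are the 250 bases before the RefSeq start on GRCh38.p14, 5′ to 3′ on the gene's strand: chr19:676142-676391 (plus strand) for FSTL3, chr19:41353923-41354172 (minus) for TGFB1, chr15:66701986-66702235 (plus) for SMAD6 and chr18:48950966-48951215 (minus) for SMAD7. Capitals mark matches, on either strand, to 4 motifs: the GC box GGGCGG of SP1-type factors, the SMAD palindrome GTCTAGAC, the GC-rich SMAD element GGCGCC and the AP-1 motif TGANTCA.
FSTL3: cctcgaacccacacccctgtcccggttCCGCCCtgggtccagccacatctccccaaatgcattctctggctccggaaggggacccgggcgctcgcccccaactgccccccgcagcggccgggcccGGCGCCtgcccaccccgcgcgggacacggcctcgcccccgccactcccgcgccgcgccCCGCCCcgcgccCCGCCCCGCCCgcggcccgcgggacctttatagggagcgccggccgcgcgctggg
TGFB1: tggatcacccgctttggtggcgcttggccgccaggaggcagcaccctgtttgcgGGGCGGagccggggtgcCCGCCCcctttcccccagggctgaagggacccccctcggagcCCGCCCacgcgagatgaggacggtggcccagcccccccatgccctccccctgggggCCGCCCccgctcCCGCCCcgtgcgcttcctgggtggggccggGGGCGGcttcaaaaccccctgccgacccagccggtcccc
SMAD6: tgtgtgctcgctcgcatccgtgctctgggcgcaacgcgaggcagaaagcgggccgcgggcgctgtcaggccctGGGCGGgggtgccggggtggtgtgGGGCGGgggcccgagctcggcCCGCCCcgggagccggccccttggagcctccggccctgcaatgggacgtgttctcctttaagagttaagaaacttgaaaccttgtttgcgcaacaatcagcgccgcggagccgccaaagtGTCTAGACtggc
SMAD7: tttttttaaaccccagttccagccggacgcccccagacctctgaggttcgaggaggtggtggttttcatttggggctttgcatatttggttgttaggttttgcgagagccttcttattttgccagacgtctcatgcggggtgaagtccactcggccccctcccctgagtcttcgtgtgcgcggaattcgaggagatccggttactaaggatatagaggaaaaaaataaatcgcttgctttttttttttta

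The FSTL3 window held 4 GC boxes and 1 GGCGCC, which begins 125 bases before the start. The TGFB1 window held 6 GC boxes and no match to the other motifs. These windows were 80.0% and 76.8% G or C, against a median of 58.0% over the 35116 RefSeq windows of the same length. SMAD6 had 3 GC boxes and GTCTAGAC 12 bases before the start, and the SMAD7 window had no match and was 48.0% G or C. RefSeq lists other start sites for SMAD7 as well, whose windows also had no match and were 58.4% and 48.4% G or C. Of all windows, 42.6% held at least 1 GC box, 16.4% GGCGCC, 6.57% TGANTCA and 0.182% GTCTAGAC. How many held several GC boxes was not counted. The matches describe the letters of the window and are not evidence of binding. A RefSeq window was at hand for 8 of the 10 genes, all but BMP2 and BMP7. Of those not printed, FST had 2 GC boxes and 1 TGANTCA, and TGFB2 and INHBA had no match. For BMP4, 1 window held 2 GC boxes and 1 GGCGCC (63.6% G or C). Another BMP4 window held 3 GC boxes (70.4%), and 1 had no match (56.0%). GC boxes were thus not particular to FSTL3 and TGFB1.

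Per length, BMP4 was the most abundant of the 10 genes in every library and FST and INHBA were almost silent. Mean levels of BMP4 were 225 ± 22.4 CPM per kb of exon (SD, n = 2) in SMARCB1 DMSO and 173 ± 16.7 in GFP Dox, the highest and lowest of the 4 groups. SMAD6 stood at 11.9 ± 0.0285 to 13.2 ± 1.7 CPM per kb in the group means, TGFB1 at 5.05 ± 0.133 to 13.7 ± 0.819, SMAD7 at 3.16 ± 0.00771 to 5.46 ± 0.326 and FSTL3 at 1.09 ± 0.0703 to 2.6 ± 0.0867. BMP7 matched SMAD6 and TGFB1 in the GFP line, with 14.1 ± 0.758 CPM per kb in GFP DMSO, and fell among the silent genes in the SMARCB1 line, with 0.00948 ± 0.0134 in SMARCB1 DMSO.

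**Figure D1:**
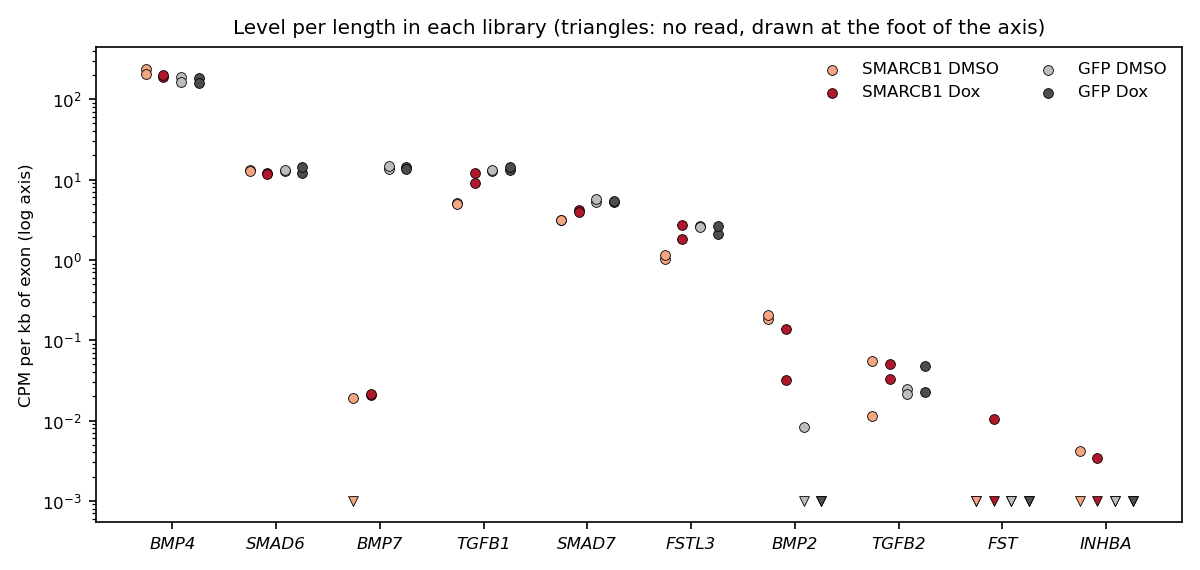
Level of each of the 10 genes in each library, in CPM per kb of exon on a log axis, colored by group, with libraries without a read drawn as triangles at the foot of the axis. BMP4 lies above all other members in all 8 libraries, and BMP7 is the gene whose GFP libraries (14.1 CPM per kb in the mean of GFP DMSO) lie far above its SMARCB1 libraries.

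Among the ligands, BMP4, which signals through SMAD1, SMAD5 and SMAD9, varied little. In the SMARCB1 line it was read at 746 and 648 CPM (reads per 1000000 of the library's effective size) with DMSO and at 589 and 628 CPM with Dox. In the GFP line the values were 585 and 501 CPM with DMSO and 571 and 498 CPM with Dox. Both SMARCB1 DMSO libraries were above the other 6, and the GFP groups overlapped. The log2 fold change was -0.20 ± 0.096 (SE) on SMARCB1 induction and 0.36 ± 0.0961 between SMARCB1 DMSO and GFP DMSO. An unnamed gene on the opposite strand shares 16.3% of the exon bases of BMP4. If the counting ignored strand, which is not stated, reads of the pair cannot be told apart there and may have gone uncounted.

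TGFB1, a TGF-beta that most cells secrete in latent form, was 2.12-fold higher after SMARCB1 induction. The SMARCB1 line had 16.8 and 16.2 CPM with DMSO and 39.9 and 29.9 CPM with Dox. The GFP line had 42.2 and 43.4 CPM with DMSO and 42.9 and 46.7 CPM with Dox. Every SMARCB1 DMSO library was below every other library, and the SMARCB1 Dox libraries lay between these and the GFP libraries without overlap. The log2 fold change on induction was 1.08 ± 0.115, and that between the DMSO groups was -1.38 ± 0.115. Leaving out 1 library at a time gave induction effects from 0.86, without SMARCB1 Dox replicate 1, to 1.27, without SMARCB1 Dox replicate 2. The fewer reads of a gene in bulk RNA can come from fewer cells with the transcript or from less transcript per cell, and these cannot be told apart here.

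BMP7, a BMP of the developing kidney, was read in the GFP line at 73.4 and 79.2 CPM with DMSO and at 77.8 and 73.8 CPM with Dox, with 2398 to 3041 reads per library. In the SMARCB1 line it had 3 and 0 reads in SMARCB1 DMSO and 4 and 4 in SMARCB1 Dox, or 0 to 0.114 CPM. By pooled counts it was 1584-fold higher in GFP DMSO than in SMARCB1 DMSO (exact 95% counting interval 542 to 7683) and 667-fold higher in GFP Dox than in SMARCB1 Dox (338 to 1546). The gap between the lines was therefore present with and without Dox. Within the SMARCB1 line the ratio of SMARCB1 Dox to SMARCB1 DMSO was 2.35 with an interval of 0.564 to 13.7. It rests on 8 against 3 reads, too few to describe a change. These intervals cover counting error only.

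BMP2, a close relative of BMP4, showed the opposite line difference at a far lower level. The SMARCB1 line had 19 and 24 reads with DMSO and 4 and 17 with Dox, whereas the GFP line had 1 and 0 reads with DMSO and 0 in both Dox libraries. The pooled ratio of SMARCB1 DMSO to GFP DMSO was 49.9 (8.5 to 2018), and BMP2 was at least 6.69-fold higher in SMARCB1 Dox than in GFP Dox, with 3 counts over the group as the limit for the group without reads. Both SMARCB1 Dox libraries were below both SMARCB1 DMSO libraries, with a ratio of SMARCB1 DMSO to SMARCB1 Dox of 2.33 (1.35 to 4.13). Here too the intervals cover counting error only. They leave out the spread between libraries, such as 4 and 17 reads with Dox, and are no test of induction. The fitted log2 change on induction was -1.20 ± 0.61, and it ranged from -2.58 to -0.50 when SMARCB1 Dox replicate 2 or replicate 1 was left out.

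TGFB2 and INHBA, the subunit of activin A, were at or near the limit of detection. TGFB2 had 2 to 11 reads in each of the 8 libraries, and its ratio of SMARCB1 Dox to SMARCB1 DMSO was 1.22 (0.565 to 2.71), with a fitted change that turned from 0.30 to -0.38 without SMARCB1 DMSO replicate 1. TGFB2 shares 34.2% of its exon bases with the transcripts TGFB2-OT1 and TGFB2-AS1, so reads lying wholly in the shared bases may have gone uncounted. INHBA had 2 reads in all 8 libraries together, 1 in SMARCB1 DMSO replicate 1 and 1 in SMARCB1 Dox replicate 1.

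Of the follistatin genes, only FSTL3 had reads enough to compare, and it was 2.1-fold higher after SMARCB1 induction. FSTL3, a secreted binder of activins and myostatin, was read in the SMARCB1 line at 3.15 and 3.46 CPM with DMSO and at 8.34 and 5.58 CPM with Dox. Its GFP libraries held 8.08 and 7.71 CPM with DMSO and 6.46 and 8.14 CPM with Dox. Both SMARCB1 DMSO libraries were below the other 6, and the SMARCB1 Dox libraries overlapped those of the GFP line. The log2 fold change on induction was 1.07 ± 0.194, and that between SMARCB1 DMSO and GFP DMSO was -1.25 ± 0.192. The induction effect was 0.75 without SMARCB1 Dox replicate 1 and 1.33 without SMARCB1 Dox replicate 2, the library with the lower level. It was 0.89 after a correction for the G and C content of exons, which was 65.6% for FSTL3, the highest of the 10 genes, and 62.1% for TGFB1. FST, which encodes follistatin itself, had 1 read in all 8 libraries, in SMARCB1 Dox replicate 2, and the limit set by 3 reads over these libraries is 0.011 CPM.

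The inhibitory SMAD genes differed from each other. SMAD7, which blocks TGF-beta, activin and BMP receptors, had 12.4 and 12.5 CPM in the SMARCB1 line with DMSO and 16.6 and 15.5 CPM with Dox. The GFP line showed 20.6 and 22.4 CPM with DMSO and 20.5 and 21.4 CPM with Dox. As for TGFB1, the SMARCB1 Dox libraries lay between the SMARCB1 DMSO and the GFP libraries with no overlap. Its log2 fold change on induction was 0.36 ± 0.111 and that between the DMSO groups was -0.79 ± 0.109. SMAD6, which acts mainly on BMP signaling, was at 111 CPM in each of the SMARCB1 DMSO libraries and at 102 CPM in each with Dox, and the GFP line was at 110 and 113 CPM with DMSO and 102 and 123 CPM with Dox. The changes of SMAD6 were -0.12 ± 0.0861 on induction and -0.01 ± 0.0859 between the DMSO groups, and its GFP Dox libraries, at 102 and 123 CPM, lay as far apart as any of the 8.

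**Figure D2:**
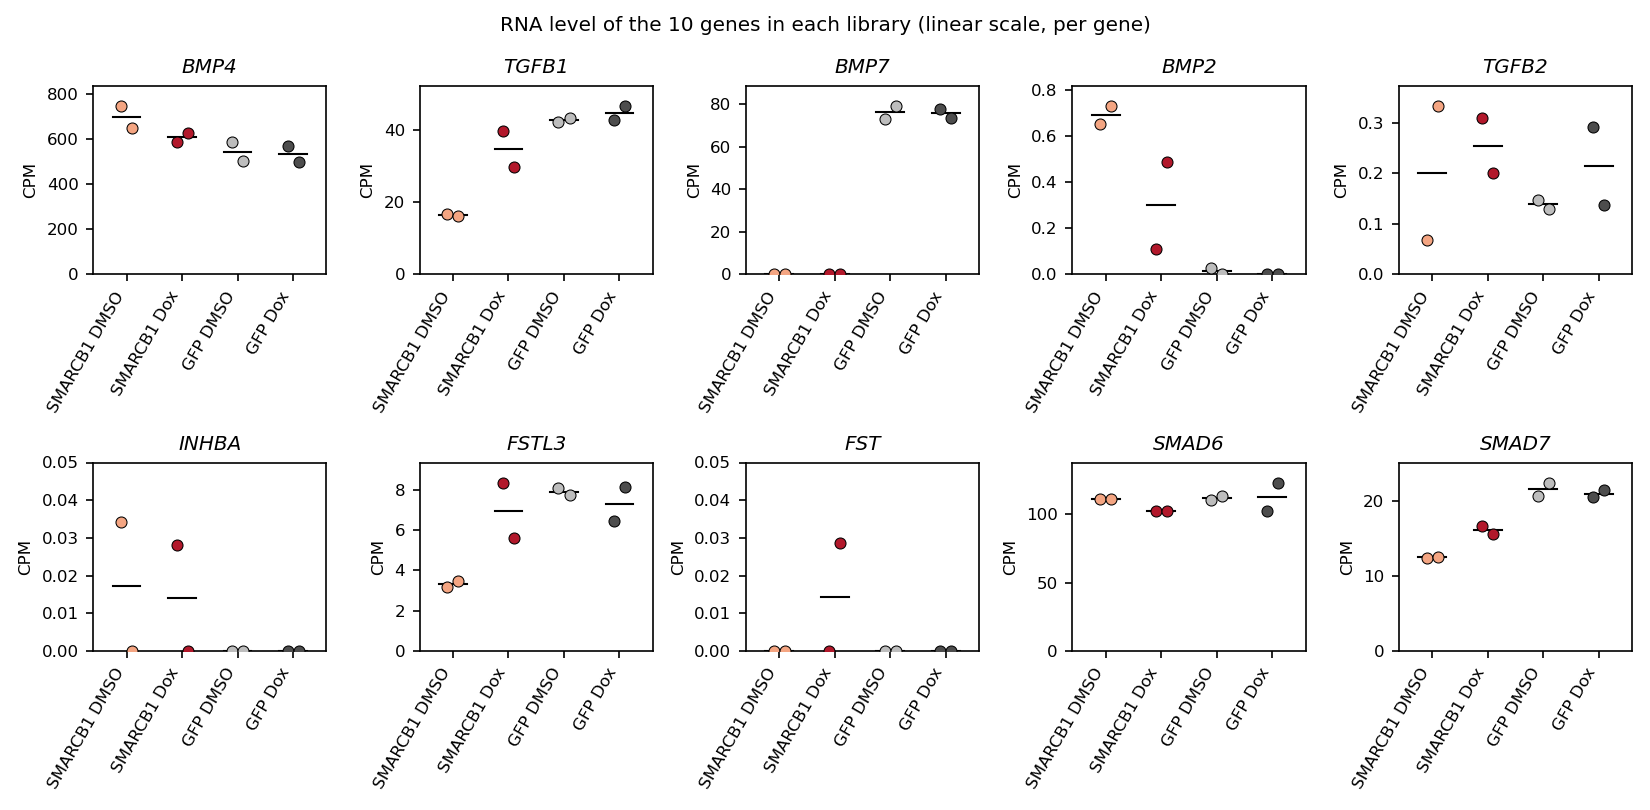
RNA level of each of the 10 genes in CPM on a linear axis from 0, with 1 point per library and a line at the mean of each group of 2. TGFB1, FSTL3 and SMAD7 are lowest in SMARCB1 DMSO (16.2 to 16.8, 3.15 to 3.46 and 12.4 to 12.5 CPM), BMP7 is near 0 in all 4 SMARCB1 libraries, and INHBA and FST show 1 read where they show any.

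With filterByExpr, edgeR's filter on low counts, 8 of the 10 genes entered the fit and INHBA and FST did not. The difference between the Dox effects of the lines was 1.01 ± 0.157 for TGFB1, 1.18 ± 0.262 for FSTL3 and 0.41 ± 0.153 for SMAD7 on the log2 scale, given as a description because the choice of genes rests on it. For the same reason calls of the members on induction, between the lines and for this difference are not given. The induction and line comparisons also share the SMARCB1 DMSO libraries, so a low level there enters both.

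In the GFP line, a comparison that played no part in the choice of genes, no change with Dox was called. By edgeR's quasi-likelihood test 0 of 8 were called, with an adjusted p of 1 for each and 0 with an unadjusted p under 0.05, and DESeq2 also called 0. BMP2 passed the filter through its reads in the SMARCB1 line and, with 1 read against 0 here, could not have been called, so it adds nothing to this count. Across all genes the share called was 0% and 266 genes had an unadjusted p under 0.05. That is fewer than a threshold of 0.05 passes by chance among 15931 genes, so the test was cautious here. A spread estimated over all 8 libraries, the SMARCB1 groups included, went into it. The 0 calls do not show that Dox had no effect. The log2 fold changes were 0.07 ± 0.107 for TGFB1, -0.11 ± 0.175 for FSTL3, -0.04 ± 0.105 for SMAD7, 0.01 ± 0.0858 for SMAD6, -0.02 ± 0.0961 for BMP4 and -0.01 ± 0.0947 for BMP7. For TGFB2 it was 0.58 ± 0.777. For each of these genes the GFP Dox libraries overlapped those with DMSO. The share of all genes with such overlap was not counted, so this is a description only.

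**Figure D3:**
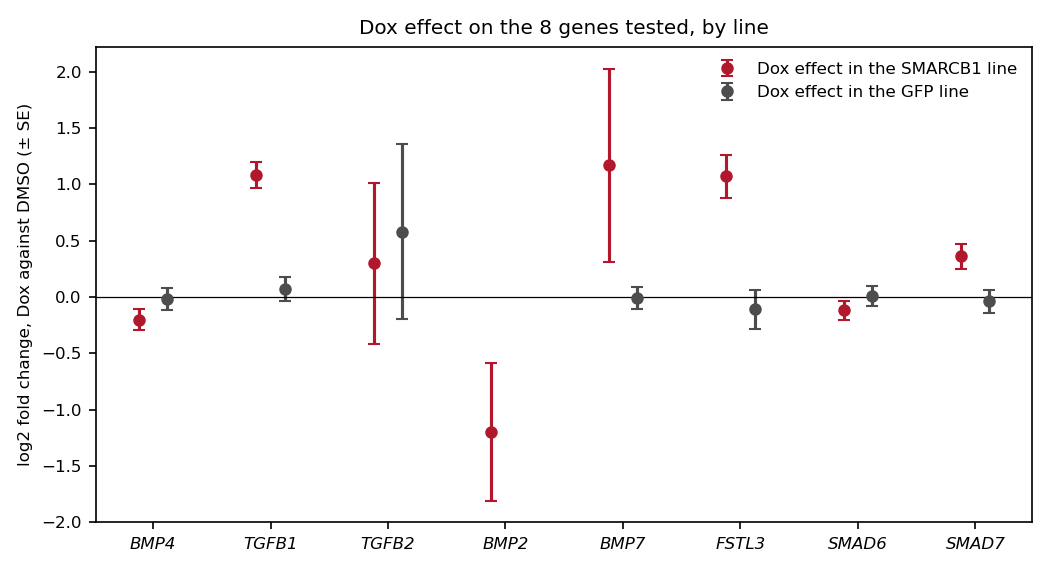
Fitted log2 fold change of Dox against DMSO (± SE) in the SMARCB1 line (red) and the GFP line (grey) for the genes tested, with BMP2 in the GFP line left out because it rests on 1 read against 0. TGFB1 (1.08) and FSTL3 (1.07) are higher with Dox in the SMARCB1 line and lie near 0 in the GFP line (0.07 and -0.11). BMP7 in the SMARCB1 line, BMP2 and TGFB2 have wide errors because they rest on few reads.

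Genes whose levels followed FSTL3 most closely over the 8 libraries (Pearson correlation of log2 CPM, genes at a mean of 5 CPM or more) were FHL2 at 0.982, ZBTB4 at 0.981, PYCR3 at 0.973, IMPDH1 at 0.971 and TGFB1 at 0.97. TGFB1 was thus both a member and among the 5 most alike genes. The induction effects of the other 4 were smaller, from 0.29 for ZBTB4 to 0.45 for IMPDH1 on the log2 scale. For BMP7 the closest were ATP1B2, SLC6A6, RBMS1, C18orf25 and RNF217, at 0.998 or more, with line differences from -5.61 for RBMS1 to -1.58 for SLC6A6. These 8 points fall into the 2 lines, share libraries and depth, and serve as a description only.

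The wider superfamily was described with a list of 109 further genes by role, of which 72 were tested. On SMARCB1 induction 17 of the 72 rose and 10 fell, that is 23.6% and 13.9%, where 8.33% and 5.69% of all genes did, and the median log2 change was 0.09 against 0 for all genes. Without SMARCB1 Dox replicate 1 the calls dropped from 27 to 15, and with scaling to library totals the split was 24 higher and 7 lower. In the GFP line edgeR and DESeq2 called 0 of them, and 3 had an unadjusted p under 0.05. Set against the GFP line, the induction effect was called as more positive for 6 and more negative for 5 of the 72 (11 and 4 with library totals), where 3.07% and 1.64% of all genes were. The list was drawn up with earlier results of these data known, so the shares describe it and do not set it apart. Counts by role that follow are likewise descriptions, to be read beside the shares of all genes given for each comparison.

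**Figure D4:**
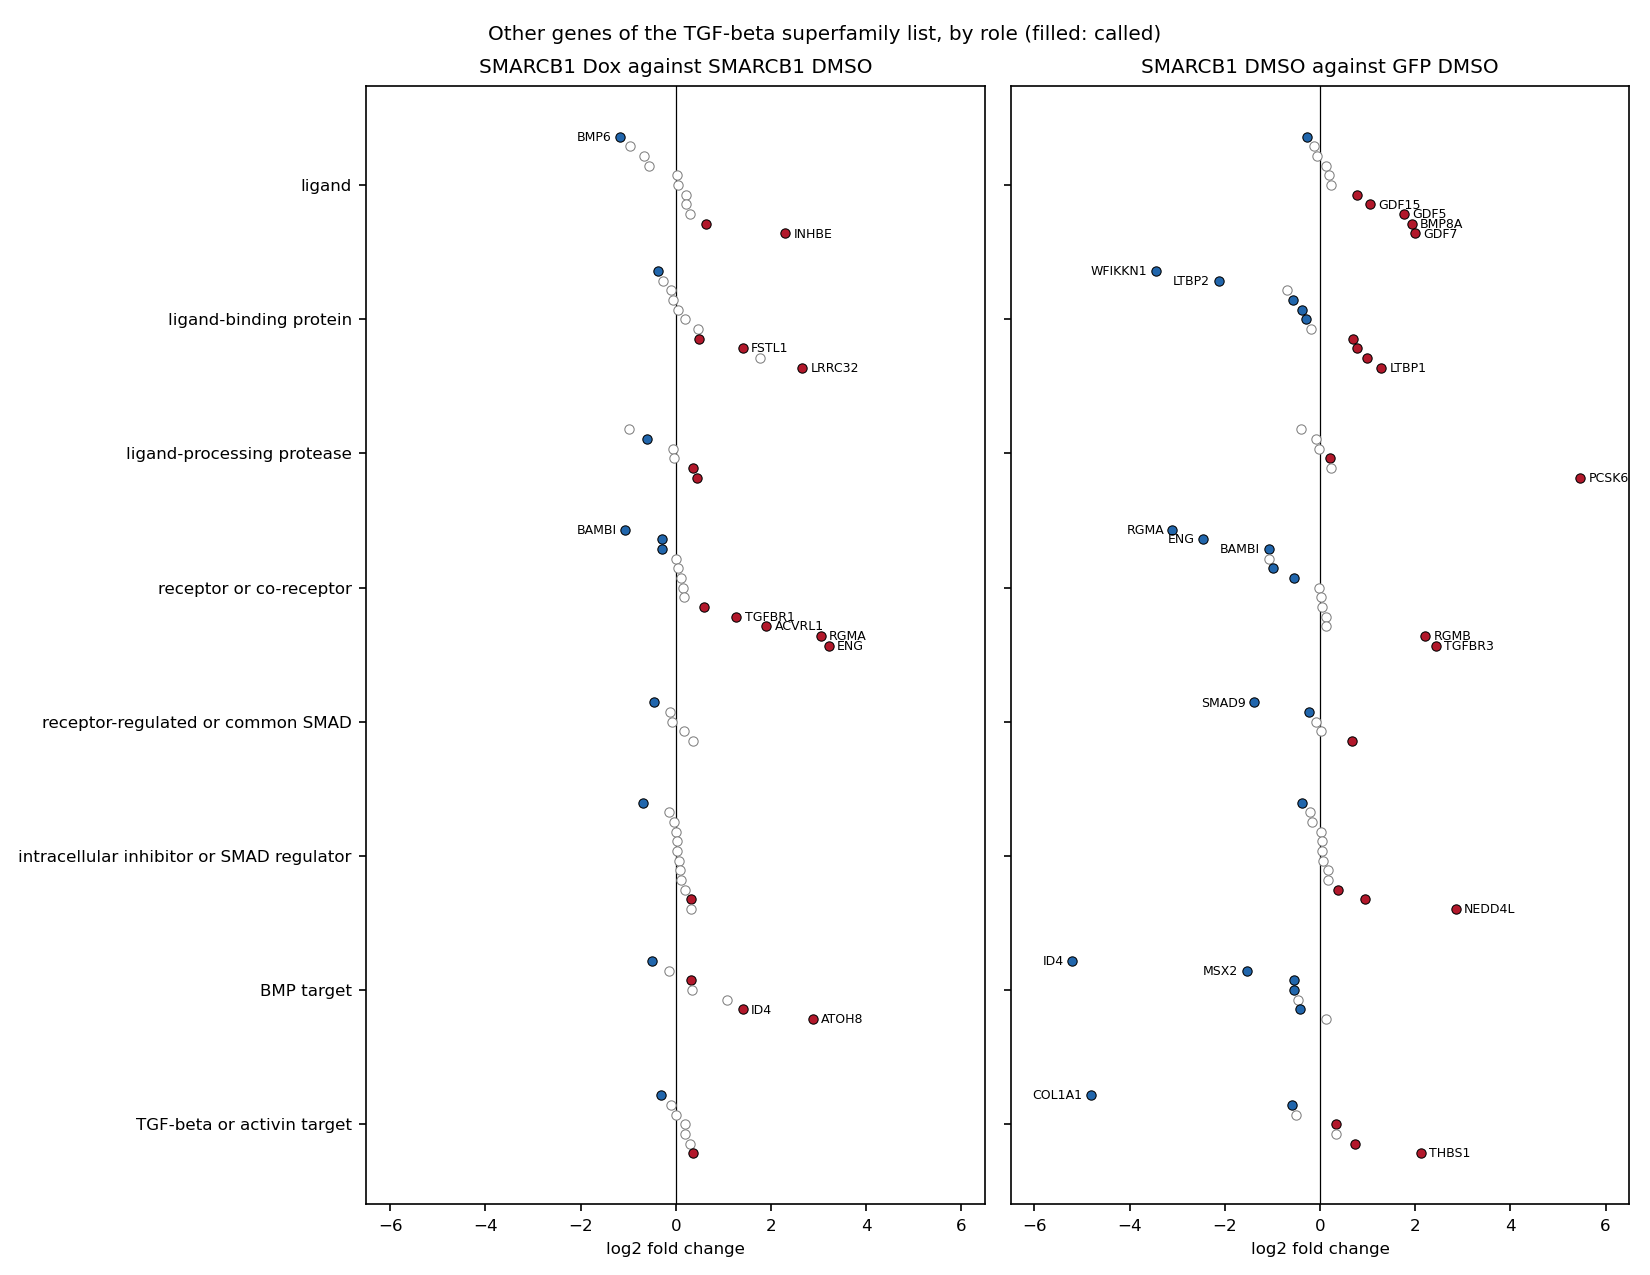
Fitted log2 fold change of each tested gene of the superfamily list other than the 10 members, by role, on SMARCB1 induction (left) and between SMARCB1 DMSO and GFP DMSO (right), with called genes filled red (higher) or blue (lower) and named where the change exceeds 1 in size. On the left ENG (3.21), ATOH8 (2.88) and LRRC32 (2.65) lie far to the right, and on the right ID4 (-5.21) and COL1A1 (-4.81) far to the left.

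Among the 11 other ligands tested, 2 rose and 1 fell on induction. INHBE, which encodes the beta E subunit of activin, rose from 0.514 and 0.273 CPM to 1.91 and 1.94 (2.30 ± 0.469, adjusted p = 0.00171). BMP6 fell from 13 and 11.3 CPM to 4.94 and 5.78 (-1.18 ± 0.146, adjusted p = 7.95e-06), below its GFP levels of 6.61 to 7.25. GDF5 rose by 0.64 ± 0.204 (adjusted p = 0.039), a call lost under 5 of 12 alternatives. An antisense transcript shares 35.4% of the exon bases of GDF5, and another 16.4% of those of INHBE. The activin subunit gene INHBB had 7 reads over the 8 libraries and MSTN, the gene of myostatin, 0, which allows up to 0.011 CPM.

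Of the 11 ligand-binding proteins tested besides FSTL3, 3 rose and 1 fell. FSTL1, a secreted follistatin-like glycoprotein, rose from 46.5 and 42.1 CPM to 127 and 107 (1.41 ± 0.0934, adjusted p = 3.14e-09), while its GFP libraries lay at 20 to 23 CPM. LRRC32, which holds latent TGF-beta at the cell surface, rose from 0.549 and 0.212 CPM to 2.16 and 2.57 (2.65 ± 0.405, adjusted p = 9.23e-05), and by 2.10 to 3.46 with either SMARCB1 DMSO library left out. NBL1, a BMP antagonist of the DAN family, rose by 0.49 ± 0.133 (adjusted p = 0.0152), and 18.6% of its exon bases are shared with overlapping genes on its strand. SOST, its relative sclerostin, decreased by 0.38 ± 0.0908 in log2 terms (adjusted p = 0.00672). The call of NBL1 was lost with the correction for G and C content, without SMARCB1 DMSO replicate 2 and without SMARCB1 Dox replicate 1, and that of SOST without SMARCB1 DMSO replicate 1 and without SMARCB1 Dox replicate 1. The BMP antagonist NOG had 4 reads over the 8 libraries. Among the proteases that process ligands or their antagonists, BMP1 and FURIN rose (0.44 ± 0.115 and 0.37 ± 0.112) and TLL1 fell (-0.60 ± 0.0832), of 6 tested. The calls of BMP1 and FURIN were lost under 3 and 4 of 12 alternatives, the correction for G and C content among them.

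Receptor genes held 8 calls among 13 tested, 5 higher and 3 lower, where 8.33% and 5.69% of all genes were higher and lower. TGFBR1, the type I receptor of TGF-beta, rose from 10.7 and 10.9 CPM to 27.9 and 23.9 (1.27 ± 0.114, adjusted p = 1.33e-07), above its GFP levels of 20.8 to 23.7. ENG, the co-receptor endoglin, rose from 0.309 and 0.182 CPM to 2.47 and 2.06 (3.21 ± 0.418, adjusted p = 1.4e-05). The GFP line held ENG at 1.54 and 1.15 CPM with DMSO and at 1.04 and 0.574 CPM with Dox. The type I receptor ACVRL1, the BMP co-receptor RGMA and the TGF-beta co-receptor TGFBR3 rose too, by 1.90 ± 0.539, 3.04 ± 0.751 and 0.59 ± 0.103. RGMA rests on 2 and 1 reads in SMARCB1 DMSO, and the calls of ACVRL1 and RGMA were lost under 3 and 2 of 12 alternatives, all of them with 1 library left out and without SMARCB1 Dox replicate 1 in both. BAMBI, a decoy receptor without a kinase, fell from 64.9 and 58.5 CPM to 30 and 29.1 (-1.06 ± 0.089, adjusted p = 5.29e-08), moving further from its GFP levels of 122 to 137. BMPR1A and ACVR2B each decreased by 0.29 (adjusted p = 0.0348 and 0.0191), calls lost under 5 of 12 alternatives. The type II receptor BMPR2 (0.10 ± 0.0841, adjusted p = 0.505) and ACVR2A (0.17 ± 0.158, adjusted p = 0.555) were not called. TGFBR2, the type II receptor of TGF-beta, had only 5 reads over the 8 libraries.

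Of the signal-transducing SMADs, SMAD3 was the 1 of 5 tested that was called, falling from 165 and 182 CPM to 125 and 131 (-0.45 ± 0.0798, adjusted p = 0.000511). SMAD4, the common partner, was at 63.1 to 78.7 CPM in all 8 libraries with an effect of -0.07 ± 0.0851 (adjusted p = 0.642). SMAD1 had 8 reads over all libraries, whereas SMAD5, another BMP SMAD, stood at 102 to 142 CPM. Among the 12 intracellular regulators tested, LEMD3, a nuclear envelope protein that binds SMADs, fell (-0.68 ± 0.0846, adjusted p = 8.46e-06) and SKIL, a SMAD co-repressor, rose (0.33 ± 0.0813, adjusted p = 0.00802), a call lost without SMARCB1 DMSO replicate 2 and without SMARCB1 Dox replicate 2.

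Among known target genes the calls went in both directions. Of the 7 BMP targets tested, ID4, ATOH8 and MSX1 rose (1.41 ± 0.278, 2.88 ± 0.487 and 0.31 ± 0.0783) and ID2 fell (-0.50 ± 0.116, adjusted p = 0.00554). ID4 reached 1.8 and 3.69 CPM in SMARCB1 Dox from 0.823 and 1.21 in SMARCB1 DMSO, with 37 to 40.6 CPM in the GFP line, and its call was lost without SMARCB1 Dox replicate 2. The call of ID2 was lost without SMARCB1 Dox replicate 1, and that of MSX1 without the same library and with the correction for G and C content. ATOH8 had 3 and 12 reads in SMARCB1 DMSO, and its change was 2.28 without replicate 1 and 4.07 without replicate 2 of that group. ID1 (0.35 ± 0.12, adjusted p = 0.0558) and ID3 (-0.14 ± 0.0895, adjusted p = 0.34), widely used readouts of BMP signaling, were not called. For ID1 the SMARCB1 Dox libraries (13.7 and 14.6 CPM) lay above those with DMSO (10.3 and 11.9 CPM), and for ID3 they overlapped. The TGF-beta target CCN2 (0 ± 0.129, adjusted p = 0.997) was not called either. COL1A1 (0.37 ± 0.119) and THBS1 (-0.30 ± 0.096) were the 2 called of 7 TGF-beta or activin targets, in opposite directions, and each call was lost under 6 of 12 alternatives.

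**Figure D5:**
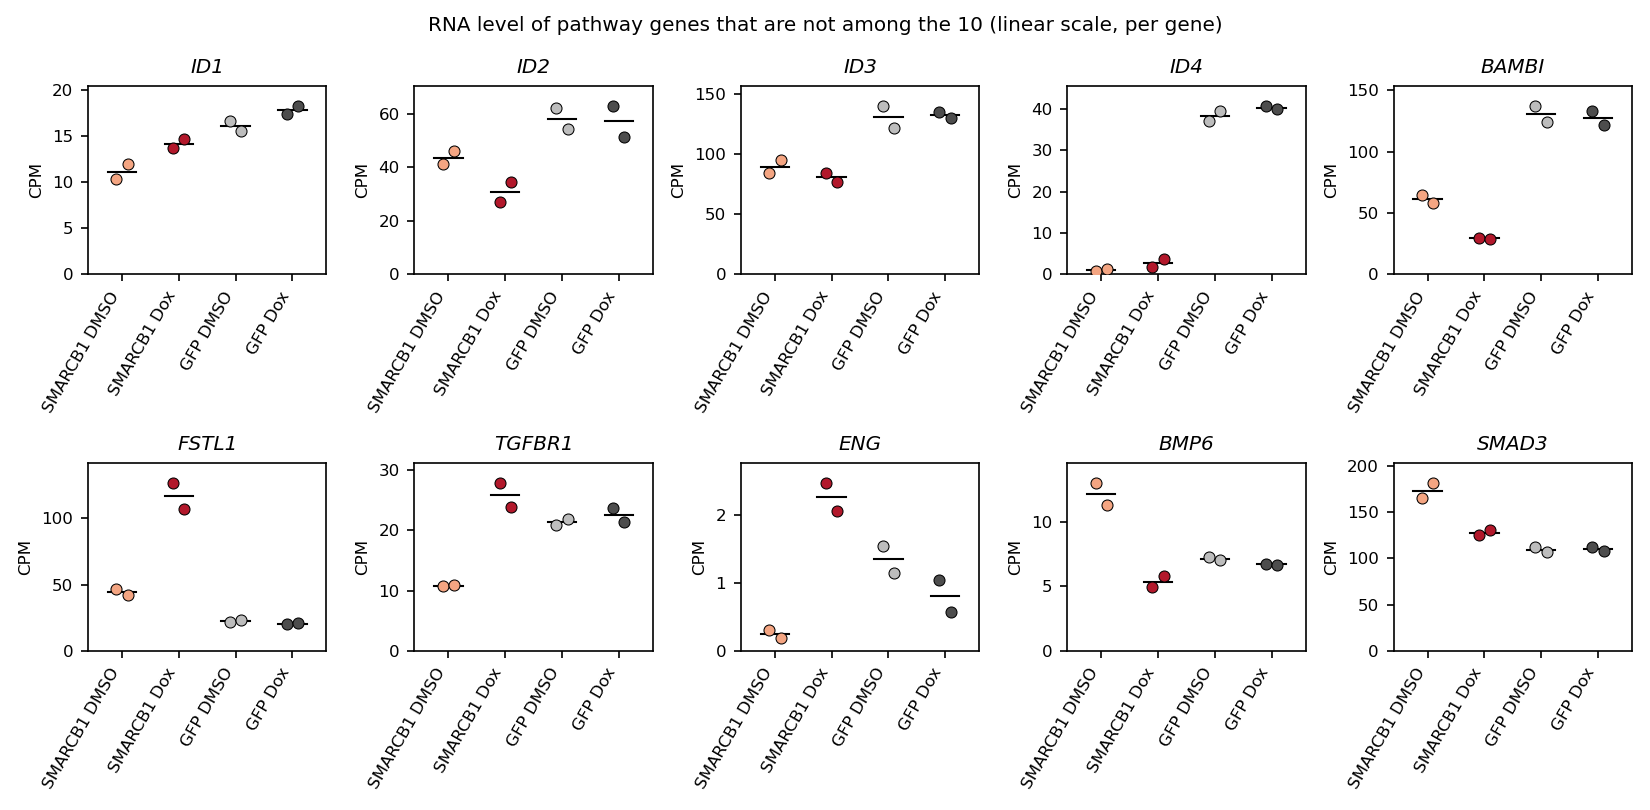
RNA level in CPM, on a linear axis from 0, of 10 superfamily genes outside the member list, with 1 point per library and a line at the mean of each group of 2. FSTL1, TGFBR1, ENG, ID1 and ID4 are higher and BMP6, BAMBI, SMAD3 and ID2 lower in SMARCB1 Dox than in SMARCB1 DMSO, without overlap. In ID3 these groups overlap, and ID4 is far below its GFP levels (37 to 40.6 CPM) in all 4 SMARCB1 libraries.

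The lines differed in the wider list without Dox. Of the 72 genes, 20 were higher and 21 lower in SMARCB1 DMSO than in GFP DMSO, 27.8% and 29.2% against 16.3% and 15.7% of all genes, with a median of 0.02 against 0.01. PCSK6, a convertase that activates ligand precursors, was at 16.8 and 14.3 CPM in SMARCB1 DMSO and 0.326 and 0.365 in GFP DMSO (5.47 ± 0.239, adjusted p = 3.11e-14). ID4 (-5.21 ± 0.213, adjusted p = 9.58e-15) and COL1A1 (-4.81 ± 0.125, adjusted p = 3.27e-18) were the most reduced of the 72. Other transcripts share 14.4% of the exon bases of PCSK6, 45.8% of those of RGMB, 12.7% of those of FKBP1A and 11.9% of those of CCN2. TLL1 was slightly higher (0.22 ± 0.0829, adjusted p = 0.0496), a call lost under 7 of 12 alternatives. Among the ligands GDF7 and GDF5 were higher (1.99 ± 0.271 and 1.77 ± 0.243), and of the latent TGF-beta binding proteins LTBP1 was higher (1.29 ± 0.0956) and LTBP2 lower (-2.13 ± 0.107).

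Co-receptor genes TGFBR3 and RGMB were higher in the SMARCB1 DMSO libraries than in GFP DMSO (2.44 ± 0.117 and 2.21 ± 0.172), BMPR2 was lower (-0.55 ± 0.0841), SMAD9 was lower (-1.38 ± 0.149) and SMAD3 higher (0.67 ± 0.0801). FKBP1A, which binds type I receptors, was higher (0.95 ± 0.0851), and SMURF2, a ubiquitin ligase for SMADs and receptors, lower (-0.38 ± 0.0904). Of the 7 BMP targets tested 5 were lower and 0 higher, where 15.7% and 16.3% of all genes were. The 5 were ID1, ID2 and ID3, at -0.54 ± 0.119, -0.41 ± 0.114 and -0.55 ± 0.089, with MSX2 and ID4. MSX2 had 4 and 11 reads in SMARCB1 DMSO, and its call was lost under 4 of 12 alternatives, DESeq2 among them. The line call of ID2 was lost without SMARCB1 DMSO replicate 1 and without GFP DMSO replicate 1. Of the 7 TGF-beta or activin targets 3 were higher, among them THBS1 (2.12 ± 0.101) and CCN2 (0.73 ± 0.131), and 2 lower.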

How the data were processed

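Total RNA of 8 G401 libraries was read as raw read counts per gene, deposited by the authors with 1 table per library. The submitters' processing notes name STAR, HTSeq and hg38, and the study's methods give HTSeq's intersection-strict mode over exons of GENCODE release 42. Versions and the strand setting are not given in the sources used here, and the labels and the methods name different library kits. The 5 rows that name no gene (27% to 29.3% of reads) were left out. Symbols, exon lengths and exon overlaps came from GENCODE 44, with the gene identifiers matched without their version. CPM per kb is CPM over the union of exon bases.

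Counts were fitted with edgeR 4.0.16 (TMM scaling, filterByExpr, quasi-likelihood test, 1 mean per group, all 8 libraries) under R 4.3.3, with Benjamini-Hochberg adjustment over the 15931 genes tested and a threshold of 0.05. A standard error is the log2 fold change divided by the root of its F statistic. The study used DESeq2, run here (1.42.0) as an alternative. The procedure was tested on simulated data. Replicates of each group differed by more than sampling noise. The mean chi-square per gene between them was 20.85 in SMARCB1 DMSO, 12.59 in SMARCB1 Dox, 7.76 in GFP DMSO and 9.15 in GFP Dox. Its expected counts came from library totals without TMM scaling, so differences in composition between replicates enter these values. No sample column was left unmatched.

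The 10 genes, the wider list of 109 genes and its roles were chosen with earlier results of these data known. The text names the 10 genes, SMARCB1, ID1 to ID3, CCN2, SMAD1, SMAD4, ACVR2A, BMPR2, in each role at most 2 called genes of the list with the largest change at a mean of 1 CPM or more, for induction and for the line comparison, and the 5 genes most like FSTL3 and BMP7. A further gene that the rule names is not reported here. Other genes, such as BAMBI and RGMA, were named after their values were seen. Alternatives were DESeq2, other scaling, no filter, the replicate number as a block, a correction for G and C content, fits to the compared libraries alone and leaving out each library.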

Additional observations from a re-analysis of the deposited data

Results flagged for a closer look

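For 11 genes of the wider list the Dox effect in the SMARCB1 line differed from that in the GFP line, by edgeR's test of the difference itself with an adjusted p under 0.05. The difference was positive for ENG (3.96, adjusted p = 0.000148), ATOH8 (3.27, adjusted p = 0.0136), LRRC32 (2.61, adjusted p = 0.0114), FSTL1 (1.53, adjusted p = 4.33e-06), ID4 (1.34, adjusted p = 0.0138) and TGFBR1 (1.19, adjusted p = 6.39e-05), in log2 units. It was negative for BMP6 (-1.09, adjusted p = 0.00288), BAMBI (-1.03, adjusted p = 1.96e-05), LEMD3 (-0.72, adjusted p = 0.000737), TLL1 (-0.60, adjusted p = 0.00381) and SMAD3 (-0.46, adjusted p = 0.0192). The Dox effect in the GFP line enters each difference. For the genes with a positive difference that effect ranged from -0.75 for ENG to 0.07 for ID4 and TGFBR1. In the SMARCB1 line both Dox libraries lay on 1 side of both DMSO libraries for each of the 11. The same libraries gave the calls, so this adds no support to them. Of these calls, 7 were kept under all 15 alternatives. Those of LRRC32, ATOH8, ID4 and SMAD3 were kept under 14, 13, 12 and 8 of the 15.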

How the results depend on the processing

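On induction TGFB1, FSTL3 and SMAD7 kept their direction under every alternative run, from 0.86 to 1.27, 0.75 to 1.33 and 0.30 to 0.46 on the log2 scale. TGFB2 did not, as it went from 0.30 to -0.38 without SMARCB1 DMSO replicate 1. For TGFB1, FSTL3 and SMAD7 both SMARCB1 Dox libraries lay above both SMARCB1 DMSO libraries. The direction of these genes could thus hardly turn, and its stability is a description only. Among the genes the rule names, no called fold change changed sign, and for genes named after their values were seen only the calls, not the signs, were followed. Calls among the 72 genes of the wider list on induction, 27 in the fit reported, numbered 22 to 33 under the other settings and 15 to 24 with 1 library left out, the lowest without SMARCB1 Dox replicate 1, and 12 of the 27 held under all alternatives. For the line comparison 32 of 41 did, with 34 to 46 calls. For the difference between the Dox effects 7 of 11 did, and with the replicate block 18 were called. The GFP line gave 0 calls in the list and among the members under each alternative. The replicate numbers correlated at 0.03 to 0.15 between groups and mark no shared culture in the labels, so they were not taken as pairs. Over all genes, calls of the difference went from 750 to 1282 with the replicate block and 1221 with the block and the correction for G and C content. They were 390 without GFP Dox replicate 1, 414 without GFP DMSO replicate 2, 427 without GFP Dox replicate 2, 469 without SMARCB1 Dox replicate 1 and 497 without GFP DMSO replicate 1. On induction the count went from 2234 to 1462 without SMARCB1 DMSO replicate 1 and 1284 without SMARCB1 Dox replicate 1. The induction count was 3149 with the replicate block and 3029 with the block and the correction for G and C content. With no filter 1 gene, C19orf73, was called in the GFP line. The cause was not tested. Scaling to library totals moved the median of all genes from 0 to 0.09 on induction and from 0.01 to -0.1 between the lines. All genes then split into 1985 higher and 497 lower on induction (1327 and 907 as reported), 670 and 159 for the difference (489 and 261) and 1732 and 3657 between the lines (2600 and 2505). Depth limits BMP2, BMP7 in the SMARCB1 line, TGFB2, INHBA and FST, which rest on 43 reads or fewer in a group.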
